A study of Homo sapiens with 6 samples.

Results

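The matrix metalloproteinases (MMPs), the ADAMTS proteases and their tissue inhibitors (TIMPs) were followed in 2 isogenic sublines of T47D, a human luminal breast cancer cell line. Members were all gene probes of the 6 arrays whose gene symbol was MMP, ADAMTS or TIMP followed by a number. They comprised 58 of 34127 probes and 45 of 25940 gene names, namely 22 MMP, 19 ADAMTS and 4 TIMP genes. The luminal line, pLUM, and the luminobasal line, pLB, were each raised from a tumor that T47Dco cells had formed in mice, so that each line stands for cells of 1 tumor. pLUM cells came from an estradiol (E) treated tumor, were kept for 2 months in 1 nM E, sorted as CLD3+CD49f- cells, grown for 2 more months and re-sorted, and were given 1 nM E for 72 h before collection. pLB cells came from a tumor treated with E plus progesterone, were kept for 2.5 months under estrogen withdrawal (EWD), sorted as CLD3-CD49f+ cells, grown for 2 more months and re-sorted, and were collected under EWD. Line and hormone therefore cannot be told apart in any difference described here. RNA of 3 sorts of each line was hybridized, 1 sample per array, and neither the labels nor the methods state which fraction of the final sort for cytokeratin 5 (CK5) was used. The sorts may be technical repeats, in which case the p-values measure technical spread alone.

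MMPs are zinc proteases that cut collagens, gelatins, laminins and other components of the extracellular matrix, and most are secreted or displayed on the membrane as inactive proenzymes. ADAMTS proteases are secreted relatives with thrombospondin repeats, of which some cut the proteoglycans aggrecan and versican and others trim procollagens or shape fibrillin microfibrils. TIMPs bind the active site of MMPs, and TIMP3 also blocks ADAM and ADAMTS enzymes. In breast cancer these proteases are studied for their part in invasion and in the release of growth factors, and much of the supply in tumors comes from stromal cells.

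Several MMP genes lie side by side on the long arm of chromosome 11, and their promoters are shown because members of this cluster behaved differently on the arrays. Promoter windows of 250 bases before and 50 bases after the transcription start (RefSeq, GRCh38.p14) were given for 26 of the 45 genes, as 27 windows. Within the cluster they covered MMP7, MMP20, MMP27, MMP8 and MMP10. MMP1, which was also higher in pLB, and MMP3, MMP12 and MMP13 had no window and were not searched, nor was MMP9. The 150 bases before the start are printed 5' to 3' for MMP10, at chr11:102780629-102780778 (minus strand), which was higher in pLB, and for MMP7 of the same cluster, at chr11:102530748-102530897 (minus strand), and MMP8, at chr11:102724955-102725104 (minus strand), which were not well above background in either line. Capitals mark TATAAA and the AP-1 element in its form TGAGTCA.
MMP10: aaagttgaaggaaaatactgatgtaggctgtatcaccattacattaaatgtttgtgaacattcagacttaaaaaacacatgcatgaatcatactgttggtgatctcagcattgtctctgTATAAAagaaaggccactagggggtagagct
MMP7: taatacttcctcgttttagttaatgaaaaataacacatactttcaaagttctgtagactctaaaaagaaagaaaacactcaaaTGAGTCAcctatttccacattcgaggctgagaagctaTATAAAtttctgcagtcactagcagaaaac
MMP8: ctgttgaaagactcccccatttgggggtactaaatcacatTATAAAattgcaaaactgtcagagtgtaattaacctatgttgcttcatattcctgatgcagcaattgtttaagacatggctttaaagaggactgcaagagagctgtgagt
The letters TATAAA, or TTTATA on the other strand, were found in 7 of the 27 windows and in 11.5% of all 35116 windows of this length. MMP10, MMP7 and MMP8 were among the 7, as were MMP20, MMP21, MMP26 and ADAMTS10. TGACTCA or its complement TGAGTCA, the binding element of the AP-1 factors, was found in 1 of the 27 windows, that of MMP7, and in 4.95% of all windows. The letters AGGAAG or CTTCCT, bound by ETS factors of the PEA3 group, were present in 6 of the 27 and in 33.6% of all windows. Within the cluster, TATAAA thus occurred before MMP10, which was well above background in pLB, and before MMP7, MMP8 and MMP20, which were not. A match describes the letters of a window and not a site in use.

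For comparison, the same stretch is printed for the membrane protease MMP14, at chr14:22836435-22836584 (plus strand), and for the inhibitors TIMP3, at chr22:32801555-32801704 (plus strand), and TIMP1, at chrX:47582286-47582435 (plus strand), which were all higher in pLB. None of these 3 stretches carries capitals, since neither TATAAA nor the AP-1 letters were found in them on either strand.
MMP14: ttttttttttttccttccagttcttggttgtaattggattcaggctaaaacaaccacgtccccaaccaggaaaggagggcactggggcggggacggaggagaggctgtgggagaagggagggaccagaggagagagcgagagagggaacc
TIMP3: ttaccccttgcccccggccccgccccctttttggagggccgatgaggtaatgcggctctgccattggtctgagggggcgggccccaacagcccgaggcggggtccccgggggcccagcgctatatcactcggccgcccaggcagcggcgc
TIMP1: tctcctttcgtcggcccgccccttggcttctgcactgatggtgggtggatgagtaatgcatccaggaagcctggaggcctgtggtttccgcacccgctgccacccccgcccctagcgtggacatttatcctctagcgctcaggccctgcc

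Signals are given as log2 of the deposited intensity relative to the 75th percentile of its array, on which 0 is that percentile. The percentile was 474 to 566 on the pLUM arrays and 449 to 869 on the pLB arrays. By the flag deposited with each spot, 21287 to 22778 probes per array were well above background. The 3 pLUM arrays and pLB replicate 1 were on the same slide, and pLB replicates 2 and 3 on another. Precision is limited by having only 3 arrays per line, with which a two-sided exact permutation test cannot reach a p under 0.1. A probe was tested with limma if 3 or more of the 6 arrays put it well above background. It was called when the lines differed at least 2-fold and the p-value, adjusted by the method of Benjamini and Hochberg, was under 0.05. Calls of probes were adjusted over all tested probes, and calls of genes over all tested genes. A gene was read from its tested probe with the highest mean. Where a line had no array well above background, the difference is given as a lower bound, taken against the faintest signals that counted as well above background on its arrays. The lines went with their names: of 7 luminal marker genes 6 were lower in pLB, and of 5 luminobasal markers 5 were higher, among them KRT5, which encodes CK5, by at least 1795-fold. CLDN3 and ITGA6 encode CLD3 and CD49f, by which the lines were sorted, and CK5 was the marker of the final sort. The direction of CLDN3, ITGA6 and KRT5 was tied to the sorting and is no test of identity. In bulk RNA, fewer cells that express a gene and less RNA per cell cannot be told apart.

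Of the 45 genes, 26 had a tested probe, 7 were well above background on 1 or 2 arrays only, and 12 on none. At the probe level, 31 of 58 were tested, of which 17 were called higher and 4 lower in pLB and 10 were not called. Over all tested probes of the array 45.6%, and over all tested genes 45.8%, were called in either direction, the probes with 21.9% higher and 23.7% lower in pLB. At the gene level 16 members were called higher and 4 lower, and 6 were not called, where 22.7% of all tested genes were called higher and 23.0% lower. More member probes were well above background on each pLB array, where they numbered 31, 34 and 31 on replicates 1, 2 and 3, than on each pLUM array, where they numbered 21, 20 and 22. A total of 12 member probes were well above background on all pLB arrays and on no pLUM array, while 0 showed the reverse. Over the whole array the corresponding numbers were 951 and 974 probes, and 8.33% of all tested probes were dim throughout in 1 of the lines. With no filter, 21 of the 58 member probes were called higher and 6 lower, beside calls for 33.2% of all probes. Of the 16 higher genes, 11 passed the filter through the pLB arrays alone, and such genes had to differ in order to be tested, so their count lends no weight to the direction.

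**Figure D1:**
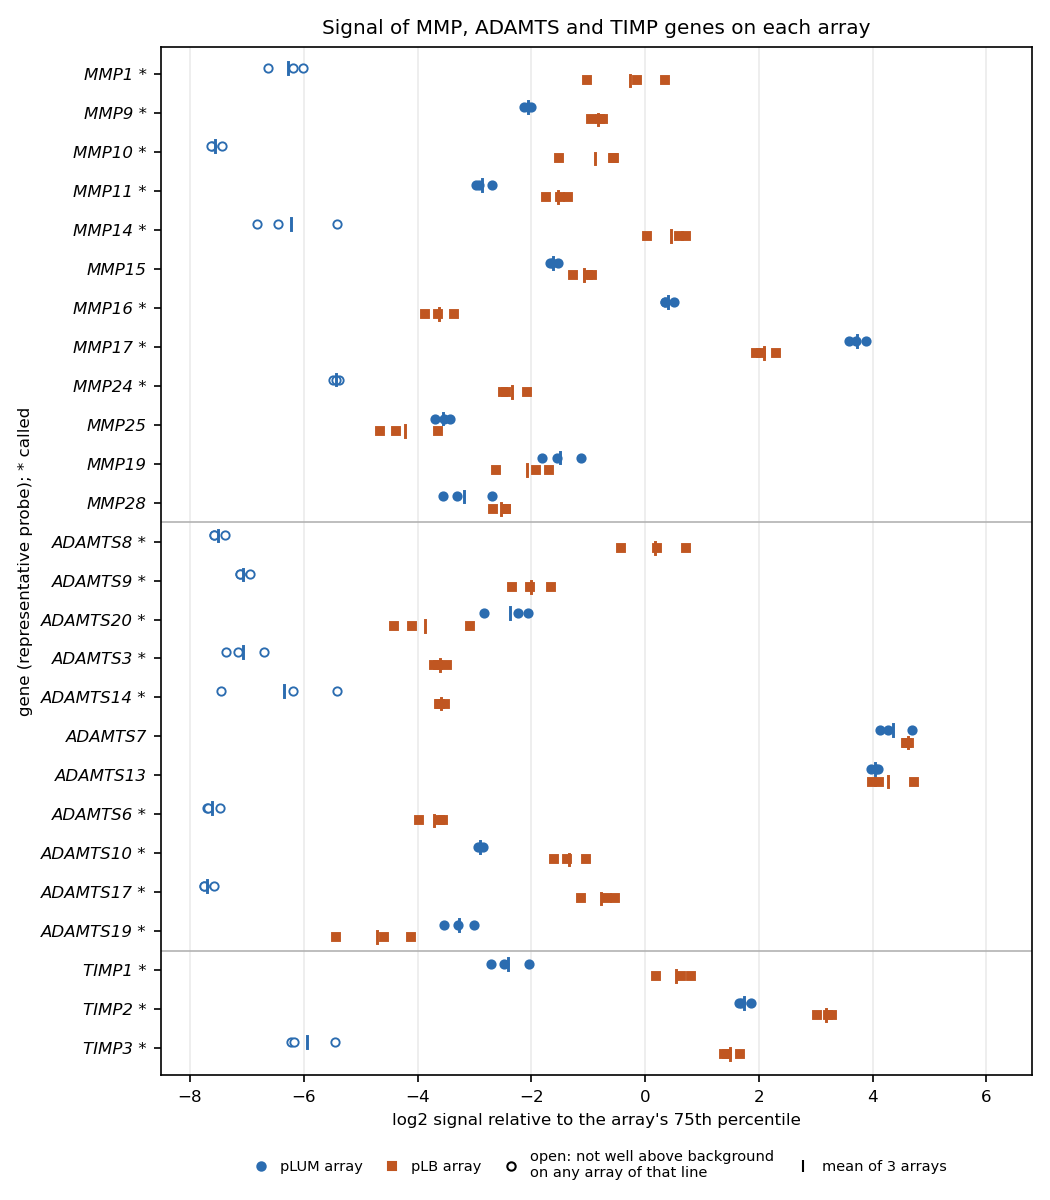
Signal of the 26 tested genes on each array, as log2 relative to the 75th percentile of the array, with pLUM arrays as circles, pLB arrays as squares and a tick at the mean of 3 arrays. Open circles mark lines without an array well above background, and an asterisk marks a call. The circles of MMP1, MMP10, MMP14, ADAMTS8, ADAMTS17 and TIMP3 lie at -5.42 or lower while their squares lie at -1.51 or higher, and MMP16 runs the other way.

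The collagenase MMP1, the stromelysin MMP10 and the membrane-type MMP14 were the MMPs with the widest gap between the lines. They were well above background on every pLB array and on no pLUM array. MMP1, which opens the triple helix of fibrillar collagens, had log2 signals of -6.18, -6.63 and -6.02 on pLUM replicates 1, 2 and 3 and of -0.13, 0.35 and -1.03 on pLB replicates 1, 2 and 3. The lines did not overlap, and MMP1 was at least 35.3-fold higher in pLB, with a fitted log2 difference of 6.01 ± 0.36 (standard error) and an adjusted p of 9.5e-06 in limma. MMP1 is represented by 10 spots of its probe per array, at chr11:102660697-102660756 on hg19. MMP10, which degrades laminin, proteoglycans and several collagens and activates other MMPs, had signals of -7.44, -7.62 and -7.64 in pLUM and of -0.55, -0.56 and -1.51 in pLB. Its signal was at least 23.2-fold higher (adjusted p = 2.0e-06 in limma). For MMP1 and MMP10 alike, pLB replicate 3 was the lowest of the pLB arrays and still lay far above every pLUM array.

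MMP14, a membrane-anchored collagenase that also activates the proenzyme of MMP2, had signals of -6.45, -6.82 and -5.42 in pLUM and of 0.03, 0.60 and 0.72 in pLB. The lines were again apart on all arrays, and MMP14 was at least 57.8-fold higher in pLB (adjusted p = 7.5e-06 in limma). Its probe lies at chr14:23315791-23315850 on hg19. MMP24, another membrane-type enzyme known mainly from neural tissue, lay close to the limit of the flag in pLUM at -5.39, -5.49 and -5.42 and at -2.07, -2.45 and -2.50 in pLB. Its difference was at least 8.36-fold (adjusted p = 7.7e-06 in limma).

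MMP9 and MMP11 were measured on all 6 arrays and rose more modestly. MMP9, the gelatinase B that cuts denatured collagen and type IV collagen of basement membranes, had signals of -2.00, -2.13 and -2.06 in pLUM and of -0.74, -0.80 and -0.95 in pLB, each a mean of 10 spots. It was 2.35-fold higher in pLB (log2 difference 1.23 ± 0.15, adjusted p = 0.00034 in limma). MMP11, a stromelysin-like enzyme that is activated inside the cell by furin, had signals of -2.93, -2.98 and -2.68 in pLUM and of -1.35, -1.50 and -1.74 in pLB. It was 2.52-fold higher in pLB (adjusted p = 0.00049 in limma). For both genes the spread within a line was a fraction of the gap between the lines. These 2 calls and that of MMP24 were lost when background was corrected by normexp, which models it on each array and was run with an offset of 50 added to every signal, with log2 differences of 0.79 for MMP9, 0.64 for MMP11 and 0.82 for MMP24. MMP1, MMP10 and MMP14 kept their calls in that setting at log2 differences of 2.48, 2.17 and 3.19. The values of MMP1, MMP10, MMP14 and MMP24 lie below the bounds given above, and the parts of the background model and of the offset in the shift were not tested.

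Membrane-type enzymes moved in both directions. MMP16, which sits in the membrane and cuts type III collagen and proMMP2, had signals of 0.51, 0.35 and 0.35 in pLUM and of -3.86, -3.65 and -3.36 in pLB. It was well above background on all 6 arrays and 16.3-fold lower in pLB (log2 difference -4.03 ± 0.18, adjusted p = 2.8e-06 in limma). MMP17, which is tethered to the membrane by a lipid anchor, had signals of 3.89, 3.72 and 3.58 in pLUM and of 1.96, 2.03 and 2.30 in pLB. It was 3.10-fold lower in pLB (adjusted p = 0.00017 in limma). Both lower genes were thus still well above background in pLB, and neither overlapped between the lines. Of the remaining 2 membrane-type enzymes, MMP15 differed by 1.46-fold and MMP25 by 1.60-fold, and neither was called. MMP15 did not overlap between the lines, at -1.67 to -1.54 in pLUM and -1.26 to -0.94 in pLB, but stayed under the 2-fold threshold.

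Of the other MMPs, MMP19 and MMP28 were tested. MMP28, also called epilysin, was 1.58-fold higher in pLB without a call, and its lines did not overlap. MMP19 was 1.50-fold lower in pLB without a call, and its lines overlapped. With slide as a block, which leaves pLB replicate 1 against the 3 pLUM arrays of the same slide, MMP19 was called lower at a log2 difference of -1.12. MMP19 and MMP25 had a second tested probe each, with log2 differences of 0.10 and 0.01.

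No MMP other than these was tested. MMP3, MMP7, MMP8, MMP12, MMP20, MMP21, MMP26 and MMP27 were well above background on no array. MMP2, the gelatinase A that MMP14 activates, passed the background flag on 2 of 3 pLUM arrays and no pLB array, with signals of -4.49, -5.52 and -4.70 in pLUM and of -7.69, -7.63 and -5.46 in pLB. The lines overlapped, and MMP2 was not tested. MMP13, the third collagenase, was well above background on pLUM replicate 3 alone, at -4.56. In pLB, the activator MMP14 was thus well above background and the gelatinase MMP2 was not.

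The MMP genes of chromosome 11 show this unevenness by position. Going from low to high coordinates on hg19, the probes followed the order MMP7, MMP20, MMP27, MMP8, MMP10, MMP1, MMP3, MMP12 and MMP13, and spanned 419.8 kb. Only MMP10 and the adjoining MMP1, whose probes lie 19.3 kb apart, were well above background in pLB, on all 3 arrays. MMP8 on the MMP10 side had signals of -7.65, -7.23 and -7.02 in pLB, and MMP3 on the MMP1 side had signals of -7.50, -7.82 and -6.83. Both were as dim in pLUM, where they ranged from -7.70 to -7.18. Of the other 7 genes, 6 were well above background on no array, and MMP13 on 1 pLUM array.

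**Figure D2:**
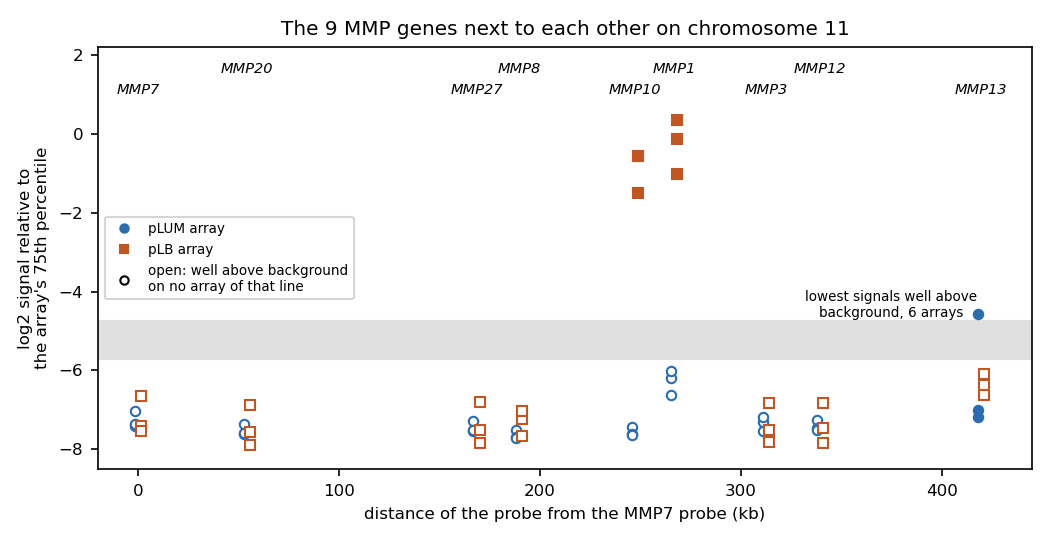
Signal of the 9 MMP genes of the chromosome 11 cluster on each array, as log2 relative to the 75th percentile of the array, against the distance of their probes from that of MMP7 in kb. Circles are pLUM and squares pLB arrays, open where a line had no array well above background, and the gray band spans the lowest signals well above background on the 6 arrays. Squares stand above the band for MMP10 and MMP1 alone.

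ADAMTS8 and ADAMTS17 showed the widest gaps among the ADAMTS genes. ADAMTS8, a member of the group that cuts aggrecan and other proteoglycans, had signals of -7.37, -7.58 and -7.58 in pLUM and of 0.72, -0.42 and 0.20 in pLB. The difference was at least 47.8-fold (fitted log2 difference 7.68 ± 0.29, adjusted p = 1.3e-06 in limma). The ADAMTS8 probe lies at chr11:130274820-130274879 on hg19, outside the MMP cluster. ADAMTS17, which is tied to fibrillin microfibrils, had signals of -7.58, -7.75 and -7.76 in pLUM and of -0.68, -1.12 and -0.52 in pLB. The rise in pLB was at least 24.9-fold (adjusted p = 5.1e-07 in limma). A second ADAMTS17 probe, designed on another transcript, was also called, at least 3.44-fold higher. In neither gene did any pLB array come near a pLUM array.

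ADAMTS9, ADAMTS3, ADAMTS14 and ADAMTS6 were likewise well above background in pLB alone. ADAMTS9, which cuts versican and aggrecan, had signals of -6.94, -7.12 and -7.12 in pLUM and of -1.65, -2.02 and -2.34 in pLB, a difference of at least 10.6-fold. ADAMTS3, which removes the N-propeptide from procollagens, had signals of -7.15, -6.70 and -7.36 in pLUM and of -3.48, -3.64 and -3.70 in pLB, at least 3.49-fold higher. ADAMTS14, with the same activity on procollagen, had signals of -7.45, -5.42 and -6.18 in pLUM and of -3.61, -3.63 and -3.52 in pLB, at least 3.52-fold higher. The third gene of this group, ADAMTS2, was well above background on no array. ADAMTS6, another protease linked to fibrillin, had signals of -7.47, -7.71 and -7.68 in pLUM and of -3.98, -3.61 and -3.56 in pLB, at least 3.24-fold higher, while its other 2 probes were well above background on no array. Adjusted p-values of these 4 genes in limma were between 1.9e-06, for ADAMTS9, and 0.0015, for ADAMTS14. All 4 calls were lost with normexp, at log2 differences of 0.91 for ADAMTS9, 0.20 for ADAMTS3, 0.09 for ADAMTS14 and 0.38 for ADAMTS6, whereas ADAMTS8 and ADAMTS17 kept theirs at 3.04 and 2.32. All of these values lie below the bounds given for the genes, which on the log2 scale were 5.58 for ADAMTS8 and 4.64 for ADAMTS17.

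ADAMTS10 was measured in both lines. This protease, which binds fibrillin, had signals of -2.91, -2.85 and -2.95 in pLUM and of -1.37, -1.60 and -1.04 in pLB, and was 2.95-fold higher in pLB (adjusted p = 0.00029 in limma). Its lines did not overlap. The call was lost with normexp, at a log2 difference of 0.78.

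Only ADAMTS20 and ADAMTS19 were called lower in pLB among the tested ADAMTS genes. ADAMTS20, which cuts versican, had signals of -2.07, -2.24 and -2.84 in pLUM and of -4.42, -4.09 and -3.08 in pLB, and was 2.79-fold lower (log2 difference -1.48 ± 0.38, adjusted p = 0.011 in limma). This probe was designed on an Ensembl transcript, and the probe for the RefSeq transcript was well above background on no array. ADAMTS19, whose substrates are little known, had signals of -3.01, -3.29 and -3.53 in pLUM and of -5.43, -4.58 and -4.12 in pLB, where 2 of 3 arrays were well above background, and was 2.70-fold lower (adjusted p = 0.0078 in limma). In both genes the pLB arrays were the more scattered, and for ADAMTS20 pLB replicate 3, at -3.08, came close to the lowest pLUM array, at -2.84. The call of ADAMTS20 was lost with the t-test of the methods, at an adjusted p of 0.057, and that of ADAMTS19 with normexp, at a log2 difference of -0.90.

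ADAMTS7 and ADAMTS13 did not pass the threshold. ADAMTS7, which cuts the cartilage protein COMP, had signals of 4.69, 4.26 and 4.12 in pLUM and of 4.61, 4.64 and 4.59 in pLB, a difference of 1.19-fold. ADAMTS13, the protease of von Willebrand factor, had signals of 3.96, 4.07 and 4.09 in pLUM and of 4.11, 3.98 and 4.73 in pLB, a difference of 1.18-fold. The lines overlapped for both genes. Further tested probes of the same genes had log2 differences of 0.42 for ADAMTS7 and 0.08 for ADAMTS13, also without a call. They were far dimmer, with means of -2.90 in pLUM and -2.48 in pLB for ADAMTS7 and of -4.46 and -4.37 for ADAMTS13. The remaining ADAMTS7 probes were well above background on no array, so the level read for either gene depends on the probe.

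The other 8 ADAMTS genes were not tested. ADAMTS2, ADAMTS5, ADAMTS16 and ADAMTS18 were well above background on no array, and ADAMTS1, ADAMTS12 and ADAMTS15 on 1 array each. ADAMTS4, an aggrecanase, passed the background flag on 2 of 3 pLUM arrays and no pLB array, with signals of -5.06, -3.50 and -3.38 in pLUM and of -7.32, -7.58 and -6.57 in pLB. Its signal in pLB was at least 2.48-fold lower, with no test.

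All 3 tested inhibitors were higher in pLB. TIMP3, which is held in the extracellular matrix, had the highest bound of all members. Its signals were -6.23, -5.45 and -6.17 in pLUM and 1.67, 1.43 and 1.39 in pLB, a rise of at least 120-fold (fitted log2 difference 7.45 ± 0.24, adjusted p = 7.1e-07 in limma). Its probe lies at chr22:33258540-33258599 on hg19, and its promoter is among those printed above. TIMP1, a secreted inhibitor that binds the proenzyme of MMP9, had signals of -2.72, -2.48 and -2.04 in pLUM and of 0.81, 0.63 and 0.20 in pLB. It was 7.77-fold higher in pLB (log2 difference 2.96 ± 0.25, adjusted p = 4.6e-05 in limma), at chrX:47444666-47444725 on hg19. TIMP2, which takes part in the activation of MMP2 by MMP14, had signals of 1.66, 1.68 and 1.86 in pLUM and of 3.28, 3.22 and 3.03 in pLB. It was 2.72-fold higher in pLB (adjusted p = 0.00020 in limma). None of the 3 overlapped between the lines, and with normexp they kept their calls at log2 differences of 3.92 for TIMP3, 2.21 for TIMP1 and 1.47 for TIMP2, of which the first lies below the bound.

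TIMP4, the inhibitor of the heart and other restricted tissues, was not tested. It passed the background flag on 2 of 3 pLB arrays and no pLUM array, with signals of -7.49, -7.76 and -7.75 in pLUM and of -4.09, -3.90 and -5.26 in pLB. Inhibitor and protease genes were thus called higher in the same line, and the ratio of their proteins was not measured.

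The lines did not overlap for 22 of the 26 tested genes, beside 68.2% of all tested probes, a share over probes and not over genes. Among the 22 were the 11 genes that passed the filter through the pLB arrays alone. For these a gap was nearly fixed by the filter, so the count lends no weight to a difference from the array as a whole. The 5 higher genes that were well above background in both lines, MMP9, MMP11, ADAMTS10, TIMP1 and TIMP2, differed by 2.35-fold to 7.77-fold. The 4 lower genes differed by 2.70-fold to 16.3-fold. Bounds of the 11 genes without such a signal in pLUM ran from 3.24-fold to 120-fold. In the fit with slide as a block, all 20 calls were kept, at log2 differences of 6.14 for MMP1, 7.01 for MMP10, 6.26 for MMP14, 8.23 for ADAMTS8, 7.62 for TIMP3, 3.23 for TIMP1, -4.26 for MMP16 and -2.15 for ADAMTS19, which was -1.43 without the block. No member gene had probes called in opposite directions, but of the 5 genes with more than 1 tested probe only ADAMTS17 had any call.

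**Figure D3:**
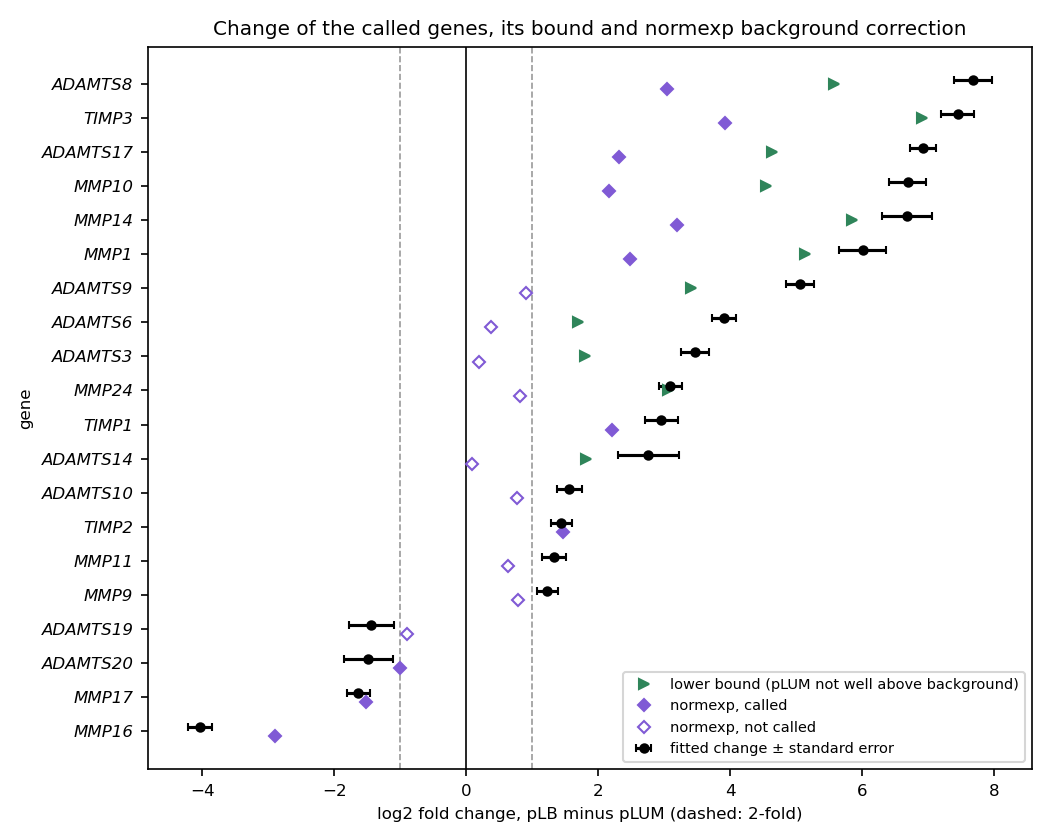
Log2 fold change, pLB minus pLUM, of the 20 called genes, with the fitted value and its standard error as black circles, the lower bound as a triangle where pLUM was not well above background, and the value after normexp background correction as a diamond. Filled diamonds are calls and open ones are not. The diamonds of TIMP3, TIMP1, TIMP2, MMP1, MMP10, MMP14, ADAMTS8 and ADAMTS17 remain beyond the dashed line of 2-fold on the right, and those of MMP16, MMP17 and ADAMTS20 on the left.

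Among 31 further genes that regulate, resemble or serve as substrates of these proteases, 22 were tested, of which 9 were called higher and 4 lower in pLB and 9 were not called, beside 22.7% of all tested genes called higher and 23.0% lower. Of 9 tested regulators 5 were higher and 0 lower. FURIN, SPOCK1 and ADAMTSL3 passed the filter through the pLB arrays alone and had to differ in order to be tested. The counts of higher partner genes and regulators therefore lend no weight to the direction. PCSK5, a proprotein convertase, had signals of -4.95, -7.37 and -7.66 in pLUM, where replicate 1 alone was well above background, and of 1.19, 1.20 and 1.37 in pLB. With the dim arrays set to their faintest signal well above background, the rise in pLB was at least 92.4-fold (adjusted p = 2.5e-07 in limma). Another tested PCSK5 probe was called with a bound of 2.90-fold only, and the remaining probe of the gene was well above background on no array. BSG, the membrane glycoprotein known as inducer of MMPs, had signals of 0.29, 0.33 and 0.63 in pLUM and of 3.51, 3.27 and 2.83 in pLB, and was 6.90-fold higher. SPOCK1, a matrix proteoglycan, was at least 15.4-fold higher in pLB. FURIN, the convertase that activates MMP14 and MMP11, was at least 3.13-fold higher, a call that was lost with normexp at a log2 difference of 0.22. LRP1 was called higher at a log2 difference of 2.61, while its other probe was not called (0.39). PCSK6 was not called (0.34), while its other probe was called higher (1.22). The membrane inhibitor RECK, the plasma inhibitor A2M and TFPI2 were well above background on no array.

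Of 6 tested matrix genes, 3 were called higher and 2 lower. ACAN was not called (log2 difference 0.37), but another of its probes, well above background in pLUM alone, was called lower (-1.02). ELN was called lower, while its other probe was not called (-0.36). VWF, among the higher at a log2 difference of 1.05, lost its call with slide as a block (0.87, adjusted p = 0.083 in limma) and turned in direction with normexp (-0.25). COMP also lost its call with normexp (0.26). VCAN, the gene of the proteoglycan versican, had signals of -0.99, -1.09 and -1.12 in pLUM and of -6.14, -5.35 and -6.04 in pLB, where 1 of 3 arrays was well above background. It was at least 17.2-fold lower in pLB, with dim signals set to the faintest ones well above background. ELN, the gene of elastin, was 4.11-fold lower, with 2 of 3 pLB arrays well above background, and 7.41-fold lower with slide as a block. FBLN1, a matrix protein known as cofactor of ADAMTS1, was 36.9-fold higher in pLB, with signals of -2.27, -2.22 and -2.93 in pLUM and of 2.98, 2.78 and 2.43 in pLB. ADAMTS1 itself was not tested. Of 7 tested relatives, MMP23B was 3.39-fold and THSD4 2.83-fold lower in pLB, and ADAMTSL3 was at least 2.54-fold higher, a call that was lost with normexp (log2 difference 0.01). PAPLN was not called (0.03), but its other probe, well above background in pLUM alone, was called lower (-1.49).

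**Figure D4:**
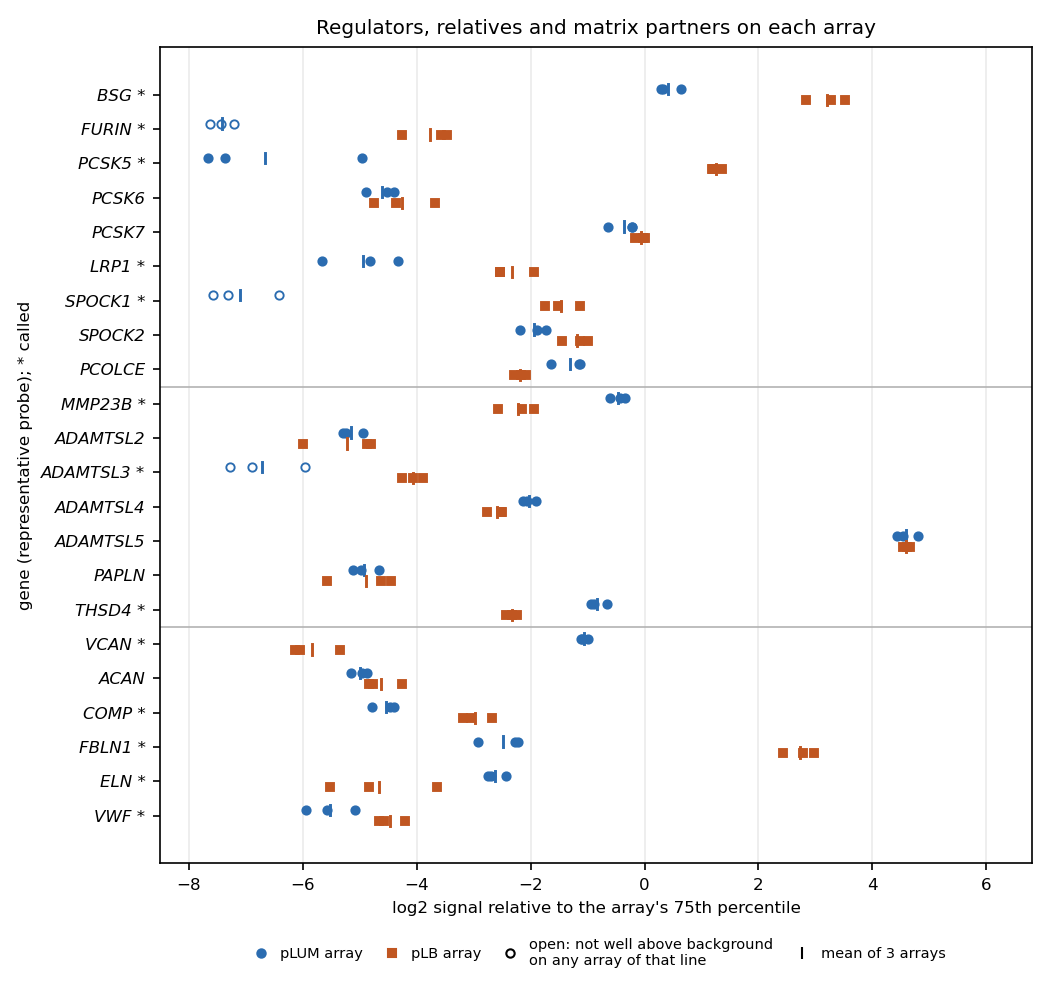
Signal of the 22 tested regulators, relatives and matrix partners on each array, as log2 relative to the 75th percentile of the array, with pLUM arrays as circles, pLB arrays as squares and a tick at the mean of 3 arrays. Open circles mark lines with no array well above background and an asterisk marks a call. PCSK5, SPOCK1, FBLN1 and BSG lie to the right in pLB, and VCAN, MMP23B, THSD4 and ELN to the left.

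Since stromal cells are a common source of these enzymes, markers of other cells were read on the same arrays. Of 8 fibroblast markers, COL3A1, DCN, LUM, PDGFRB and POSTN were well above background on no array. COL1A2 and THY1 were at least 11.7-fold and 23.5-fold higher in pLB, and COL1A1 was not called. The summed level of the fibroblast markers, as multiples of the 75th percentile, was 0.784 to 0.978 on the pLUM arrays and 1.27 to 1.81 on the pLB arrays. Of 6 leukocyte markers on the array, CD68 and AIF1 were 2.87-fold and 2.15-fold higher in pLB and 4 were not called, with sums of 0.230 to 0.370 in pLUM and 0.316 to 0.495 in pLB. AIF1 was near background in pLUM, where 1 of 3 arrays was well above it. PTPRC was not called by its brightest probe (log2 difference -0.47). Another PTPRC probe was called lower in pLB (-1.20, adjusted p = 0.0045 in limma), and its remaining probes were well above background on no array. The endothelial markers KDR, PECAM1 and TEK were well above background on no array, and the sum of 4 such markers was 0.0614 to 0.0848 in pLUM and 0.0591 to 0.173 in pLB. CDH5, the other of these markers, was well above background on all 6 arrays and was not called. The part of COL1A2, THY1, CD68 and AIF1 in the protease signals was not tested.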

How the data were processed

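RNA of FACS-sorted pLUM cells (3 samples, 1 nM E for 72 h) and pLB cells (3 samples, EWD) was measured on Agilent arrays with 1 dye. The authors deposited Agilent Feature Extraction 10.10.1.1 output, in which each spot has an intensity on a linear scale, background-corrected within but not normalized between arrays, and flags. Gene names and probe positions (hg19) are those of the files. Labels name Partek for later processing, which was not used here.

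Each deposited intensity was divided by the 75th percentile of the gene spots of its array and taken as log2. Control and outlier-flagged spots (296 to 387 per array, 0 in members) were left out, no gene spot was saturated, and spots of a probe were averaged. The 23106 probes that 3 or more of the 6 arrays put well above background were fitted by line in R 4.3.3 using limma 3.58.1 (lmFit, eBayes, Benjamini-Hochberg adjustment). Genes were adjusted over 17671 genes. For a lower bound, each array of the dim line was given the probe's own signal or its faintest signal well above background, whichever was higher, and the averages of both lines were subtracted. Tested on simulated data for pLB against pLUM with 23106 probes, of which 200 were changed, the fit gave 6 false calls. It recovered 55 of 100 changes of 1.5 and 72 of 100 of 2 on the log2 scale. In the data 45.6% of tested probes were called, so these rates do not carry over to the fit used here.

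Member genes with a called probe are given by array, grouped by role, as are the called partner genes with the largest changes (up to 5 per direction). Other members are named with ranges or counts. Members and lists were chosen with earlier results of these data known. Alternatives were normexp with an offset of 50, other scalings and filters, other thresholds and tests, slide or replicate number as a block, the mean over probes of a gene, and fits without each array. Replicate numbers were not used as pairs. Promoters are from RefSeq (GRCh38.p14), in other coordinates than the probes.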

Additional observations from a re-analysis of the deposited data

How the results depend on the processing

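No member gene changed direction under any of the 20 alternatives that gave it a value, and 10 of the 20 called genes (MMP1, MMP10, MMP14, MMP16, MMP17, ADAMTS8, ADAMTS17, TIMP1, TIMP2 and TIMP3) kept their call in each that gave them a value. Of these, MMP1, MMP10, MMP14, ADAMTS8, ADAMTS17 and TIMP3 had a value in 19. Dropping the fold threshold or the adjustment could not remove a call, and the t-test left the differences as they were, so such settings are no check of direction. With normexp, the probes called higher in pLB fell to 8 from 17 among members and to 3004 from 5054 over the array, member genes called higher to 8 from 16 and partner genes called higher to 4 from 9, where FURIN, ADAMTSL3, COMP, LRP1 and VWF were lost. The cause was not tested. When a probe had to be well above background on 6 of 6 arrays, 5 member probes, 5 member genes and 3 partner genes were called higher and 2 partner genes lower instead of 4. Genes dim in a line were then not tested, save LRP1, which was read from another probe (log2 difference 0.39) and lost its call. Without the filter, 21 member probes were called higher and 6 lower, and ADAMTS1 and ADAMTS12 (higher), ADAMTS4 and MMP2 (lower) and TIMP4 (higher) were added at the gene level. The ADAMTS1 probe read there was well above background on no array, and that of ADAMTS12 on 1 pLB array. Those of ADAMTS4, MMP2 and TIMP4 were so on 2 arrays each. Without the fold threshold, MMP15 and MMP28 were added.

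Scaling to spike-in probes moved the median log2 difference of all genes from 0.04 to 0.26, normexp moved it to -0.21, and the share of called genes that were higher in pLB went from 49.7% to 59.3% and 45.3%. Under spike-in, median and quantile scaling all 20 member calls were kept. Leaving out each array gave 17 member probes higher and 4 lower, and 16 member genes higher and 4 lower, each time. The range was 8 to 9 partner genes higher, where VWF was lost without pLUM replicate 3 (log2 difference 0.85) and without pLB replicate 2 (0.92), and 4 to 5 lower, where PCOLCE was added without pLUM replicate 2 (-1.04). Over the array, 4994 to 5122 probes were higher and 5107 to 6160 lower. Samples with the same number did not deviate together (r = -0.27, -0.10 and -0.22 for replicates 1, 2 and 3), so the numbers do not pair them. With the replicate number as a block, 17 member probes and 16 member genes were higher and 4 of each lower, and no member call changed. Signals near background limit 12 genes that no array measured and the 11 bounds.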
